A study of Mus musculus with 4 samples.

Results

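Microglia and phagocyte genes were examined in RNA of 2 striatal regions of old mice, nucleus accumbens and dorsal striatum. The set held 34 genes chosen by symbol, and all 34 had a row among the 32531 gene rows of the count files. The low-count filter left 32 of them among 14493 tested genes, and Cst7 and Itgax stayed below it. By role they comprised 11 genes of homeostatic microglia, 3 complement C1q chains, 9 receptors and immune signalling genes, 6 phagocytic and lysosomal genes and 5 genes of activated microglia.

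Accumbens nucleus and dorsal striatum each gave 2 libraries. All 4 came from Drd1-TRAP CP73 mice aged over 20 months, which carry Drd1-EGFP/Rpl10a, a tagged ribosomal protein under the Drd1 promoter made for pulling down the messenger RNA of Drd1 neurons. All 4 were labelled as input, read here as RNA of all cells without pull-down (the preparation of the input is not described), so RNA of microglia was included. There were no young animals and no mice without the transgene, and the labels do not say whether the 2 libraries of a region were from separate animals. Spread between samples is all that the p-values here measure, and it may be technical.

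Microglia are the resident macrophages of the brain. In the healthy state they survey the tissue with moving processes, and this state is marked by purinergic receptors such as P2ry12, the fractalkine receptor Cx3cr1 and the growth factor receptor Csf1r, on which their survival depends. Around plaques, dying cells and damaged myelin they engage Trem2 and its adaptor Tyrobp, lower the homeostatic genes and raise genes of lipid handling and phagocytosis such as Lpl, Cst7, Itgax and Spp1. The ETS factor PU.1, encoded by Spi1, is a main regulator of genes of this lineage and binds sites with a GAGGAA core.

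The 250 bases before the transcription start were taken from the RefSeq promoters of GRCm38.p6 for 25 of the 34 genes. The letters GAGGAA, on either strand, occurred in 14 of the 25 (56.0%), against 25.9% of 27025 genes with a promoter in the same table. Upstream sequences of 3 genes are shown because these genes stand for the complement, receptor and adhesion arms and were each higher in replicate 1 of both regions. They lie at chr4:136886201-136886450 (minus strand) for C1qb, chr17:48346151-48346400 (plus strand) for Trem2 and chr7:128062390-128062639 (plus strand) for Itgam. Each is written 5′ to 3′ up to the base before the start, with GAGGAA or its reverse complement TTCCTC in capitals.
C1qb: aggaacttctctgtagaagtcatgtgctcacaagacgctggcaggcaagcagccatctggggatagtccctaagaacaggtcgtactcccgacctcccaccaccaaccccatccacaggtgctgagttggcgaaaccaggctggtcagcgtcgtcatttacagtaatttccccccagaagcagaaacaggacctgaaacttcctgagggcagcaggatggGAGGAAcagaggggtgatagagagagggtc
Trem2: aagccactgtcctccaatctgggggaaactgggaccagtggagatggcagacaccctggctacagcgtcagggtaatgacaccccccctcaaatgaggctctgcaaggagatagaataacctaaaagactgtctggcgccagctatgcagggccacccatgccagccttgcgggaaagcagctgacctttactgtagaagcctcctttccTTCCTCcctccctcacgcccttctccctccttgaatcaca
Itgam: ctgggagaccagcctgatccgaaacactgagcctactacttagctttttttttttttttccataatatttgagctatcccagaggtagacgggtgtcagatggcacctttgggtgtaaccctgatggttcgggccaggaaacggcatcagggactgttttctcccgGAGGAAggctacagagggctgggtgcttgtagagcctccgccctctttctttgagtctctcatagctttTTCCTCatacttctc
The match began 30 bases before the start in C1qb, 40 before it in Trem2, and 84 and 15 before it in Itgam. All 3 genes shown hold a match, so they do not represent the members in this respect. Fcer1g and Lyz2, also higher in replicate 1 of both regions, had 0 matches in their 250 bases. A match describes the letters only.

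Counts assigned to genes ranged from 8478403 to 11849134 per library, and levels are given as CPM, counts relative to library size after TMM scaling. One count was worth 0.0797 to 0.125 CPM, so a gene at 1 CPM rested on about 10 reads. Markers of striatal projection neurons summed to 6090 and 4980 CPM in accumbens, against 6980 and 7180 CPM in dorsal striatum over 12 genes. All 12 were detected and tested, and 5 had a positive and 7 a negative log2 fold change of accumbens over dorsal striatum. Rgs9 and Rasd2 were past the threshold and lower in accumbens, as were 0.290% of all tested genes. In bulk tissue, fewer cells of a type and less RNA per cell cannot be told apart. The strand setting of the counting is not given, and 3 of the 34 genes lie inside another gene on the opposite strand. All exon bases of P2ry12 and P2ry13 lie within Med12l (91.0 and 139 CPM in accumbens, against 111 and 108 CPM in dorsal striatum) and those of Gpr34 within Cask (171 and 162 against 162 and 180 CPM). Exons of Hmgxb3 cover 15.1% of the exon bases of Csf1r, and those of Fdft1 cover 12.8% of Ctsb, where reads may be lost as ambiguous. The transcript of Lyz2 shares 96.0% of its length with Lyz1 at 95% identity or more, and Lyz1 itself had 0 counts in accumbens and 0.21 and 0.239 CPM in dorsal striatum. Itgam and Ctsd share 73.8% and 38.0% of their transcripts with gene models that have no row in the files.

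None of the 34 genes passed the threshold between regions. The test was the quasi-likelihood test of edgeR on all 14493 genes, which called 186 genes (1.28%) at an adjusted p under 0.05, of which 144 (0.994%) were higher in accumbens and 42 (0.290%) lower. The lowest adjusted p among the 32 tested members was 0.147, for Ctsd. At an unadjusted p under 0.05 there were 2 members, Csf1r and Ctsd, both higher in accumbens, against 19.2% of all tested genes. DESeq2 also called 0 members (6.10% of all tested genes), with 2 at an unadjusted p under 0.05 (16.9%). The groups did not overlap for 10 of 32 members, against 51.2% of all tested genes. Tmem119, Csf1r, C1qa, Ctsd and Ctsb were the 5 higher in accumbens (25.6% of all tested genes), and P2ry13, Olfml3, Inpp5d, Aif1 and Lpl the 5 lower (25.6%).

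The sign was positive for 22 of 32 members, against 51.4% of all tested genes. The median log2 fold change of accumbens over dorsal striatum was 0.20 for the members and 0.02 for all tested genes. Scaling by library size alone moved the median of all genes to −0.15 and that of the members to 0.03, and gave P2ry12, Gpr34, Selplg, C1qb, Ctss and Cd68 a negative sign. Leaving out dorsal striatum replicate 1 moved the members' median to 0.63, and leaving out accumbens replicate 1 moved it to 0.02. Fold changes in these data were higher for short transcripts, and the 12 members in length deciles 1 and 2, the shortest, had a median of 0.13, against 0.19 for all genes of those lengths, while the 20 longer members had 0.28, against −0.004. The data bound the differences only loosely. The 95% interval of the log2 fold change lay within a 2-fold change in both directions for 4 members, Ctss, Ctsd, Ctsb and Lpl, and reached a 2-fold higher level in accumbens for 24 of 32 and a 2-fold lower level for 13 of 32.

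**Figure D1:**
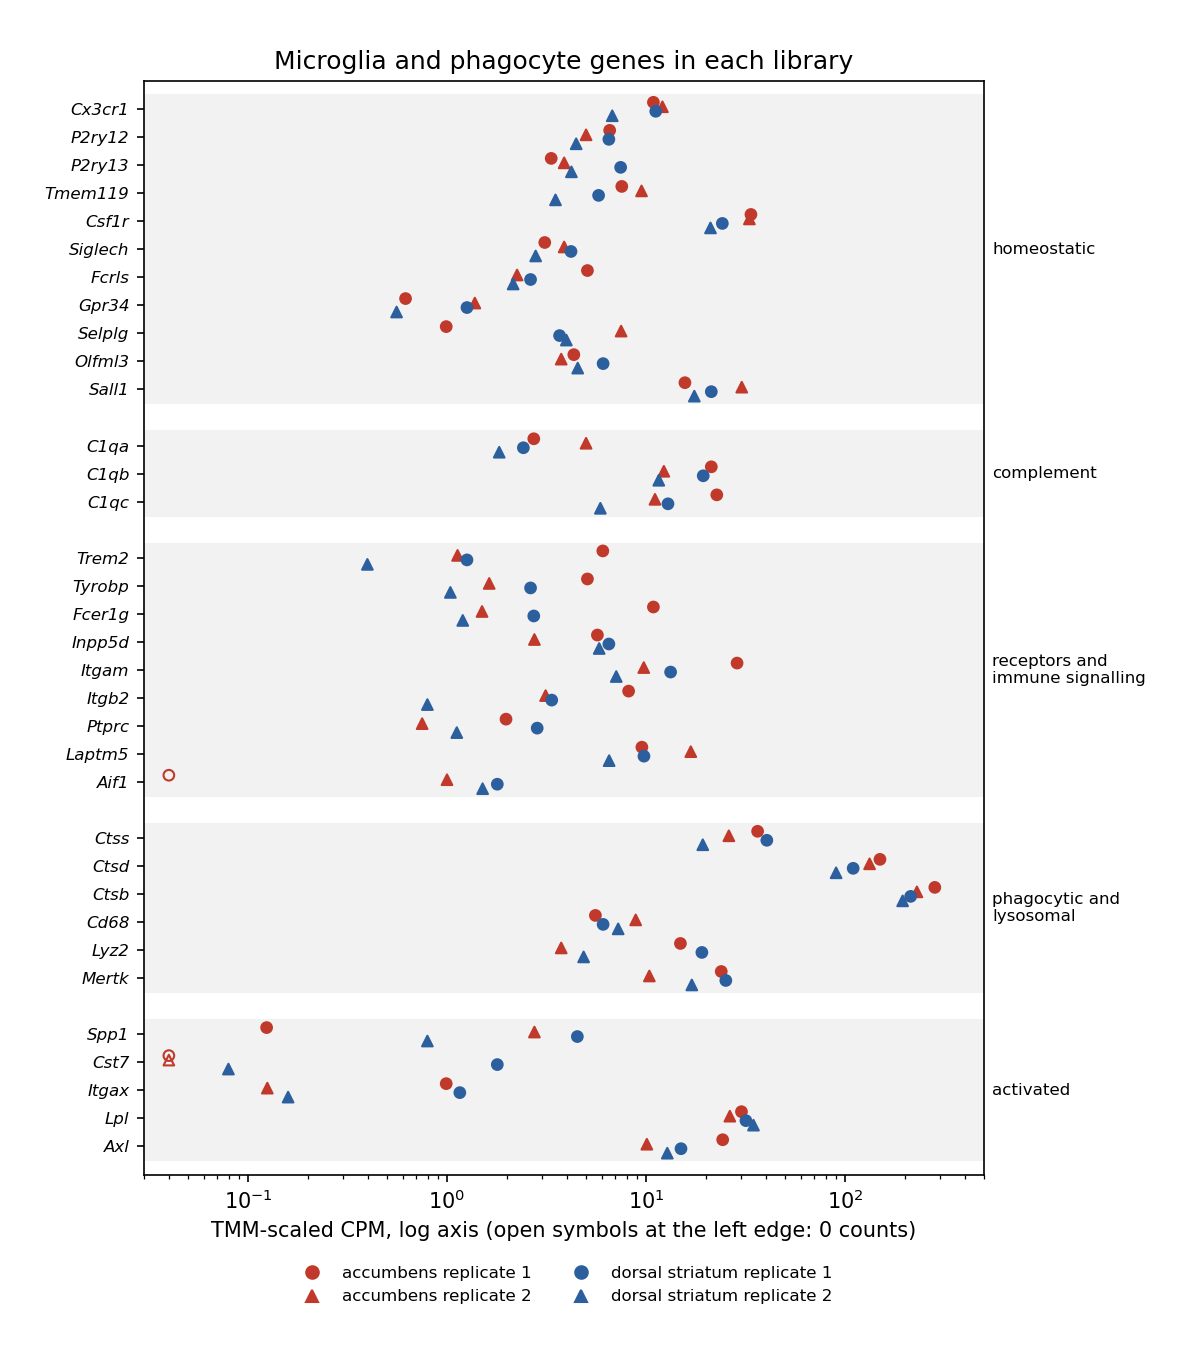
TMM-scaled CPM of each of the 34 genes (rows, grouped by role) in each library on a log axis, with accumbens in red, dorsal striatum in blue, circles for replicate 1 and triangles for replicate 2. The 2 libraries of a region lie far apart for genes such as Trem2, Fcer1g, Lyz2 and Spp1, while Ctsb, Ctsd, Lpl and Csf1r lie close together, and open symbols mark 0 counts of Aif1 and Cst7 in accumbens.

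Levels of different genes were compared per kilobase of the longest protein-coding transcript. Per length and averaged over the 4 libraries, the cathepsin genes led, with Ctsd at 56.7, Ctsb at 48.5 and Ctss at 22.6 CPM per kb. C1qb was at 14.9, C1qc at 10.9, Lyz2 at 8.09 and Lpl at 7.48 CPM per kb. Among homeostatic genes Csf1r averaged 5.96 and Gpr34 0.457 CPM per kb, and Itgax averaged 0.150 CPM per kb. All 34 genes together summed to 784 and 630 CPM in accumbens, against 642 and 499 CPM in dorsal striatum, and took 0.0735% and 0.0595% of gene counts in accumbens and 0.0680% and 0.0528% in dorsal striatum. Ctsd and Ctsb, lysosomal proteases that many brain cell types express, made up 55.2% and 57.5% of these counts in accumbens and 50.4% and 57.2% in dorsal striatum.

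Of the 11 homeostatic genes none passed. The median log2 fold change was 0.15, with 8 genes positive and 3 negative. Csf1r, the receptor of the cytokines CSF1 and IL-34, stood at 33.7 and 33.1 CPM in accumbens, against 24.2 and 21.1 CPM in dorsal striatum. Both accumbens libraries were above both dorsal striatum libraries, with a log2 fold change of 0.56 (SE 0.22, 95% interval 0.05 to 1.07, edgeR adjusted p = 0.221). Tmem119, which encodes a membrane protein specific to microglia in the brain, was at 7.56 and 9.50 against 5.78 and 3.51 CPM. Its groups also did not overlap, but the interval of 0.88 ran from −0.18 to 1.95 (edgeR adjusted p = 0.344). The remaining homeostatic genes had intervals on both sides of 0.

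Cx3cr1, the receptor of the neuronal chemokine fractalkine (chromosome 9, 119901616 to 120069879), had 10.9 and 12.1 CPM in accumbens, against 11.2 and 6.77 CPM in dorsal striatum, and only dorsal striatum replicate 2 stood low. Its log2 fold change was 0.36 (interval −0.52 to 1.24). P2ry12, the ADP receptor that guides microglial processes to injury (chromosome 3, 59216272 to 59262871), had 6.57 and 5.0 against 6.51 and 4.46 CPM, and the regions overlapped (0.08, interval −1.04 to 1.19). Its neighbour P2ry13, also an ADP receptor gene (chromosome 3, 59207892 to 59210882), was lower in both accumbens libraries, at 3.34 and 3.88 against 7.46 and 4.22 CPM (−0.69, interval −1.95 to 0.57). Siglech, a sialic acid binding lectin gene, had the same mean in both regions, 3.49 ± 0.551 against 3.50 ± 1.00 CPM (SD, n = 2 each), with an interval of −1.41 to 1.41.

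Selplg, which encodes the selectin ligand PSGL-1, differed more within accumbens than between regions, at 0.991 and 7.5 CPM in accumbens, against 3.68 and 3.98 CPM in dorsal striatum. Accumbens replicate 1 was the low library, with 8 counts against 60 in replicate 2. Sall1, a transcription factor gene of microglial identity, likewise had 15.7 and 30.3 CPM in accumbens, on either side of the 21.3 and 17.5 CPM of dorsal striatum. Fcrls, an Fc receptor-like gene, had 5.08 and 2.25 against 2.63 and 2.15 CPM, and here accumbens replicate 1 was the high library. Olfml3, which encodes a secreted olfactomedin-like protein, was lower in both accumbens libraries, at 4.34 and 3.75 against 6.09 and 4.54 CPM (−0.39, interval −1.58 to 0.80). Gpr34, a lysophosphatidylserine receptor gene, was near 1 CPM throughout, with 5 and 11 counts in accumbens and 12 and 7 in dorsal striatum.

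The 3 C1q chains, which assemble into the starter molecule of the classical complement pathway, lie side by side on chromosome 4 between 136880129 and 136898803. None passed and all 3 had a positive sign, although that of C1qb turned negative with library size alone (−0.06) and with offsets for transcript length (−0.11) or GC content (−0.08). C1qc stood at 22.7 and 11.1 CPM in accumbens, against 12.9 and 5.90 CPM in dorsal striatum. Replicate 1 was about 2 times replicate 2 in both regions (ratio 2.04 in accumbens and 2.19 in dorsal striatum), and the log2 fold change of 0.85 had an interval of −0.26 to 1.97. C1qb ran in parallel, at 21.3 and 12.3 against 19.4 and 11.6 CPM (0.12, interval −0.77 to 1.00). C1qa did not, at 2.73 and 5.0 against 2.42 and 1.83 CPM (0.86, interval −0.70 to 2.43). Per length C1qa was at 2.88 CPM per kb, well below the other chains.

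Among the 9 receptors and signalling genes none passed, and the largest positive fold changes of all members were here. Trem2, the lipid-sensing receptor of phagocytic microglia (chromosome 17, 48346401 to 48354147), had 6.07 and 1.13 CPM in accumbens, against 1.26 and 0.398 CPM in dorsal striatum. These rest on 49 and 9 counts in accumbens and 12 and 5 in dorsal striatum, and accumbens replicate 1 alone was high. The log2 fold change was 2.13 (SE 1.03, interval −0.26 to 4.57, edgeR adjusted p = 0.308). Its adaptor Tyrobp, also called DAP12, was at 5.08 and 1.63 against 2.63 and 1.04 CPM (0.88, interval −1.10 to 2.87), and accumbens replicate 2 lay between the dorsal striatum libraries. Fcer1g, the adaptor shared by Fc receptors, repeated this order with 10.9 and 1.5 against 2.73 and 1.20 CPM (1.67, interval −0.47 to 3.82).

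Itgam and Itgb2 encode CD11b and CD18, which together form complement receptor 3. Itgam (chromosome 7, 128062640 to 128118491) had 28.7 and 9.75 CPM in accumbens, against 13.3 and 7.09 CPM in dorsal striatum, a log2 fold change of 0.92 (interval −0.29 to 2.14). Itgb2 had 8.18 and 3.13 against 3.36 and 0.797 CPM (1.46, interval −0.45 to 3.38). In both genes accumbens replicate 1 was highest and dorsal striatum replicate 2 lowest. Inpp5d, the lipid phosphatase SHIP1 that dampens receptor signalling in immune cells, was lower in both accumbens libraries, at 5.70 and 2.75 against 6.51 and 5.82 CPM (−0.54, interval −1.79 to 0.70). Ptprc, the pan-leukocyte phosphatase CD45, had 1.98 and 0.750 against 2.84 and 1.12 CPM (−0.52, interval −2.65 to 1.60). Laptm5, a lysosomal membrane protein gene of blood-derived lineages, had 9.54 and 16.8 against 9.77 and 6.53 CPM (0.69, interval −0.26 to 1.64). Aif1, which encodes the microglial stain IBA1, had 0 and 8 counts in accumbens and 17 and 19 in dorsal striatum, and the count of 0 allows up to 0.372 CPM. Accumbens replicate 1 thus had no read of Aif1 while it had the most Trem2, Fcer1g and Itgam.

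Of the 6 phagocytic and lysosomal genes none passed, and the median log2 fold change was 0.09. Ctsd, the aspartyl protease cathepsin D, stood at 150 and 133 CPM in accumbens, against 110 and 90.3 CPM in dorsal striatum, with no overlap. Its log2 fold change of 0.50 (SE 0.16, interval 0.13 to 0.86, edgeR adjusted p = 0.147) had the lowest p of all members. Ctsb, the cysteine protease cathepsin B, followed at 283 and 230 against 214 and 195 CPM, again with no overlap (0.33, SE 0.15, interval −0.01 to 0.66, edgeR adjusted p = 0.266).

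The other 4 genes of this group had intervals on both sides of 0, which also include the 0.50 of Ctsd. Ctss, cathepsin S, had 36.4 and 26.1 CPM in accumbens within the 40.5 and 19.3 CPM of dorsal striatum (0.07, interval −0.75 to 0.89). Cd68, a lysosomal glycoprotein gene used as a phagocyte marker, had 5.57 and 8.88 against 6.09 and 7.25 CPM (0.11, interval −0.90 to 1.13). Lyz2, a lysozyme gene, had 14.9 and 3.75 against 19.1 and 4.86 CPM, so that each region held 1 high and 1 low library (−0.35, interval −2.09 to 1.38). Mertk, a receptor kinase for apoptotic cells that astrocytes also express, had 23.9 and 10.4 against 25.2 and 17.0 CPM (−0.30, interval −1.25 to 0.65).

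Genes of activated microglia were at low levels apart from Lpl and Axl. Lpl, lipoprotein lipase, was at 30.2 and 26.4 CPM in accumbens, against 31.8 and 34.7 CPM in dorsal striatum, with no overlap (−0.23, SE 0.21, interval −0.73 to 0.26, edgeR adjusted p = 0.604). Axl, a receptor kinase of the same family as Mertk, was at 24.3 and 10.1 against 15.0 and 12.8 CPM (0.31, interval −0.66 to 1.27). Spp1, osteopontin, had 1 and 22 counts in accumbens and 43 and 10 in dorsal striatum, and its interval spanned −3.91 to 2.14. Cst7, the protease inhibitor cystatin F, had 0 counts in both accumbens libraries and 17 and 1 counts in dorsal striatum. Against the floor of 3 counts per library its mean was at least 2.50-fold lower in accumbens, and dorsal striatum replicate 2 alone was under that floor. Itgax, CD11c, had 8 and 1 against 11 and 2 counts. Neither Cst7 nor Itgax was tested.

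Homeostatic and activated genes were set side by side within each library. The 11 homeostatic genes summed to 91.9 and 113 CPM in accumbens, against 94.4 and 71.6 CPM in dorsal striatum. The 5 activated genes summed to 55.6 and 39.4 against 54.3 and 48.6 CPM. The ratio of activated to homeostatic sums was 0.605 and 0.350 in accumbens and 0.576 and 0.679 in dorsal striatum, and accumbens replicate 2 was the lowest. The activated sums, and so the ratio, came mostly from Lpl and Axl, which other cells also express. Without Lpl and Axl the activated genes summed to 1.11 and 2.88 CPM in accumbens, against 7.46 and 1.04 CPM in dorsal striatum. These sums rest on 9 and 23 counts in accumbens and 71 and 13 in dorsal striatum, and dorsal striatum replicate 1 held most of the counts. The 3 tested activated genes were Spp1, Lpl and Axl, and their median log2 fold change of −0.23 was the value of Lpl. The homeostatic genes had a median of 0.15, and the gap of −0.38 is smaller than its SD between replicates of 0.63. With Trem2, Tyrobp, Ctsb, Ctsd and Lyz2 counted as activated too, the gap was 0.17. For the 3 tested activated genes, leaving out a library put it at −0.78 (accumbens replicate 1), 0.02 (accumbens replicate 2), 0.03 (dorsal striatum replicate 1) or −0.20 (dorsal striatum replicate 2).

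**Figure D2:**
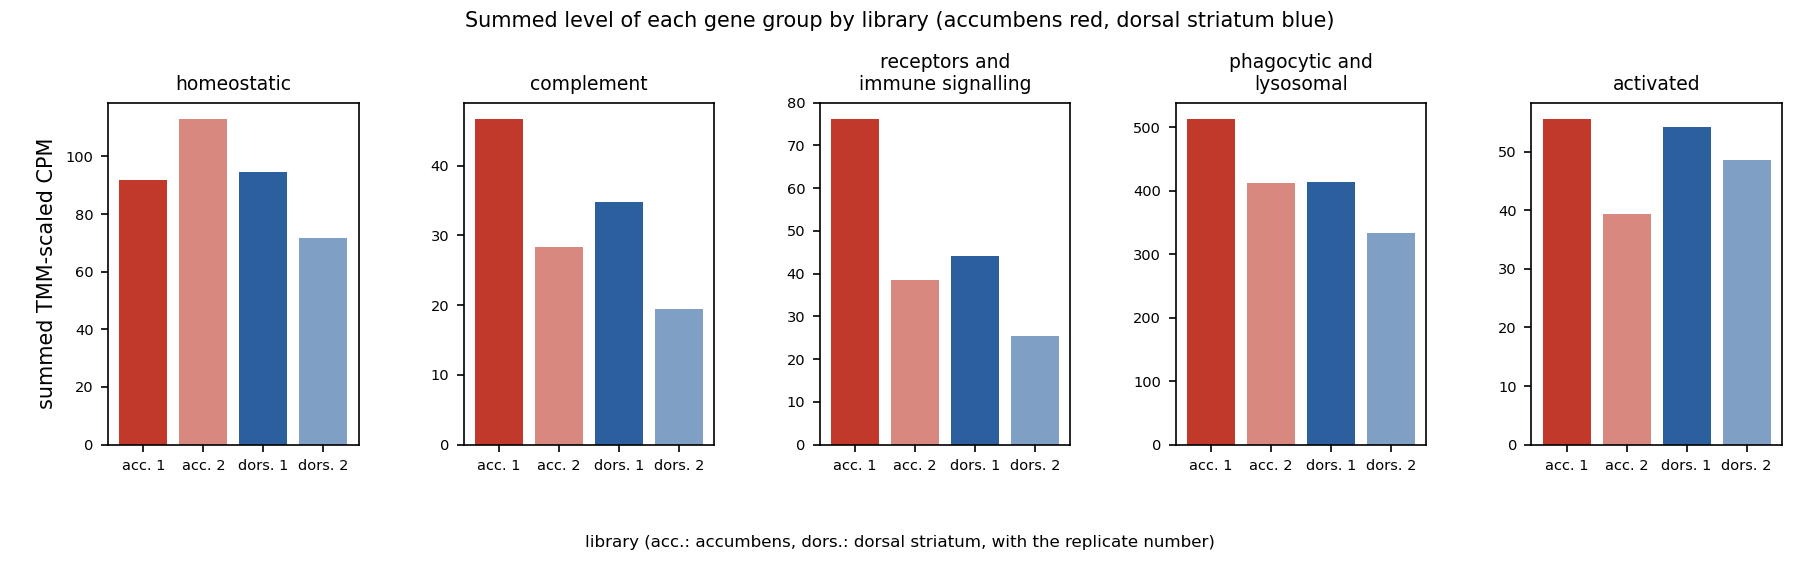
Summed TMM-scaled CPM of the genes of each role in each library, with accumbens bars in red and dorsal striatum bars in blue and a separate axis from 0 for each role; a bar is 1 library and carries no error. Receptor and signalling genes summed to 76.2 and 38.4 CPM in accumbens, against 44.2 and 25.5 CPM in dorsal striatum, and the activated genes to 55.6 and 39.4 against 54.3 and 48.6 CPM.

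**Figure D3:**
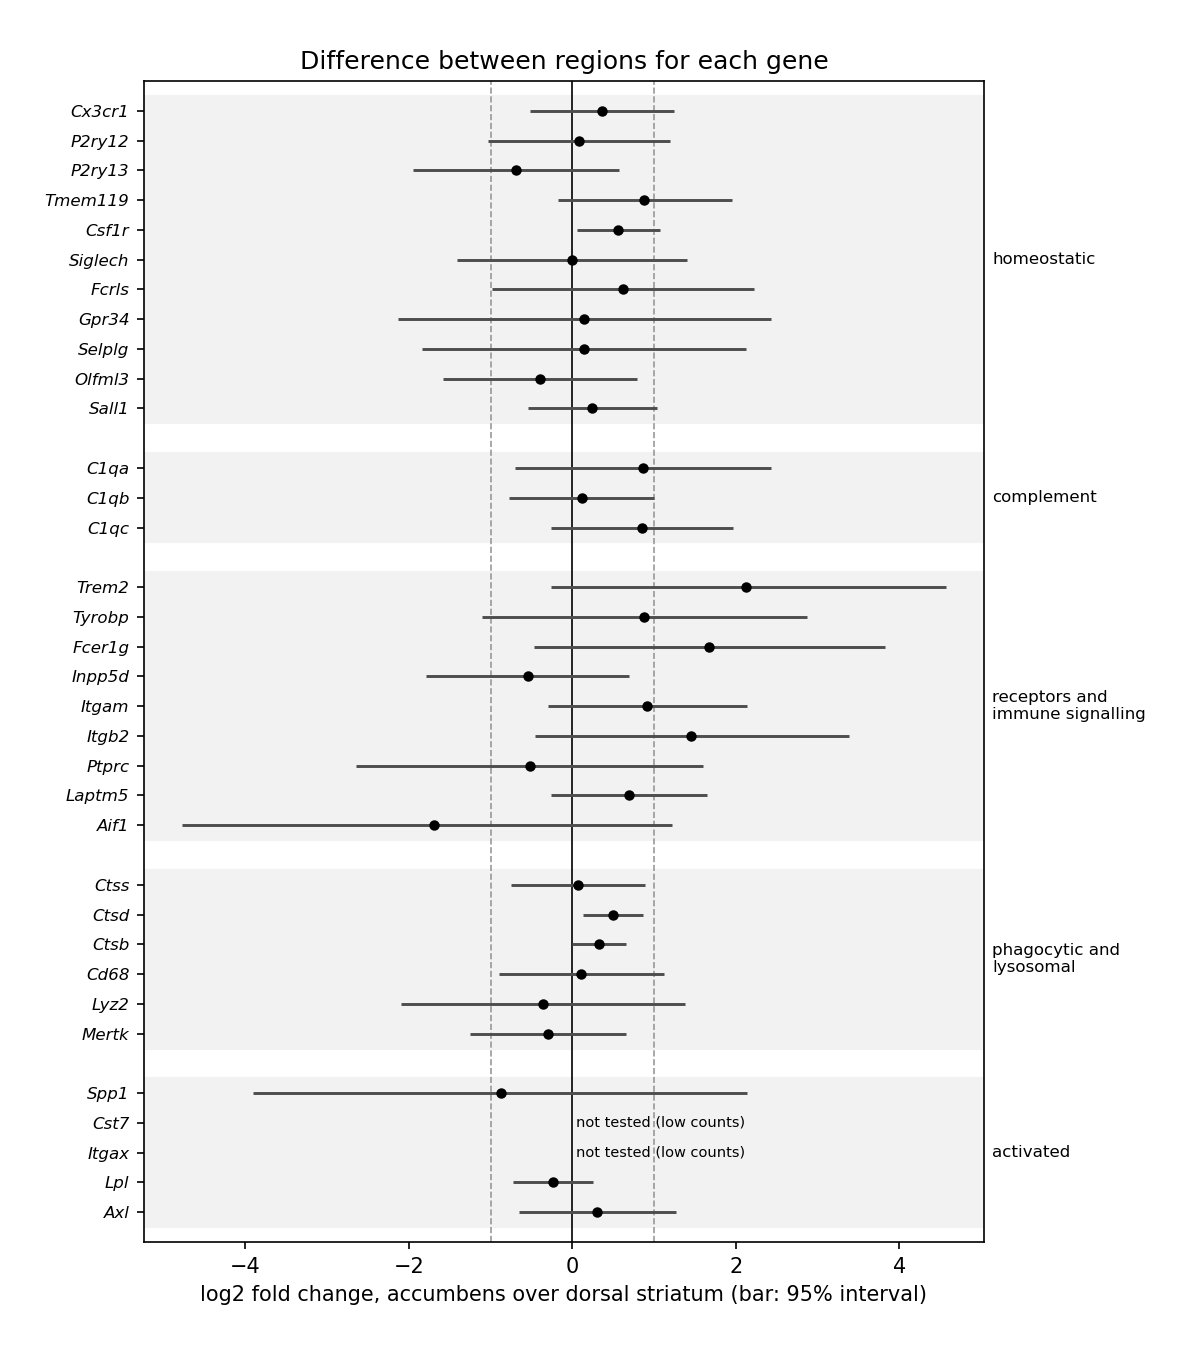
Log2 fold change of accumbens over dorsal striatum for the 32 tested genes (points) with the 95% interval of the quasi-likelihood test (bars), and dashed lines at a 2-fold change in each direction. The intervals of Csf1r and Ctsd lie above 0, and the other 30 include it.

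The levels of these genes also differed between the 2 libraries of a region. In dorsal striatum replicate 1 was above replicate 2 for 29 of 32 tested members, against 50% of all tested genes, and by more than 2-fold for 10 members, against 3.22%. The exceptions were Selplg, Cd68 and Lpl. No member was over 2-fold higher in dorsal striatum replicate 2, against 1.65% of all tested genes. A list of 28 tested further microglia genes showed less of this gap. Of these, 19 were higher in dorsal striatum replicate 1, and 1 was so by more than 2-fold. In accumbens replicate 1 was above replicate 2 for 20 of 32 members, against 49.9% of all tested genes. It was over 2-fold above replicate 2 for 12 members (10.3% of all tested genes) and over 2-fold below it for 4 (11.4%), namely Selplg, Gpr34, Aif1 and Spp1. Among the 18 members with a mean under 10 CPM the gap exceeded 2-fold for 61.1% in accumbens, against 46.4% of 5543 tested genes. In dorsal striatum it did so for 38.9% of them, against 11.9%. Counting error is smaller among genes with a mean of 10 to 100 CPM. There the gap exceeded 2-fold for 5 of 12 members in accumbens, against 8.20% of 6951 tested genes. In dorsal striatum it did so for 3 of 12, against 0.633%. These members had means from 10.3 (Cx3cr1) to 30.8 CPM (Lpl), in the low part of the band, so the levels compared are not alike.

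Some receptor and phagocyte genes were higher in replicate 1 of both regions, while Cd68 was lower in replicate 1 of both (ratio to replicate 2 of 0.628 in accumbens and 0.840 in dorsal striatum). Laptm5 was lower in replicate 1 of accumbens (0.569), where Aif1 had 0 counts. The ratio of replicate 1 to replicate 2 was 5.39 in accumbens and 3.16 in dorsal striatum for Trem2, 3.13 and 2.54 for Tyrobp, and 3.96 and 3.93 for Lyz2. The 95% counting interval (exact binomial) of the accumbens ratio ran from 2.62 to 12.5 for Trem2, and that of the dorsal striatum ratio from 1.04 to 11.5. For Lyz2 it ran from 2.64 to 6.13 in accumbens and from 2.93 to 5.35 in dorsal striatum. These intervals cover counting error only. Homeostatic genes did not all share this order. The ratio was 0.899 in accumbens and 1.66 in dorsal striatum for Cx3cr1, 0.795 and 1.65 for Tmem119, and 1.02 and 1.14 for Csf1r. Over the 11 homeostatic genes 4 were higher in accumbens replicate 1 and 10 in dorsal striatum replicate 1, while over the 9 receptor and signalling genes these counts were 7 and 9.

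**Figure D4:**
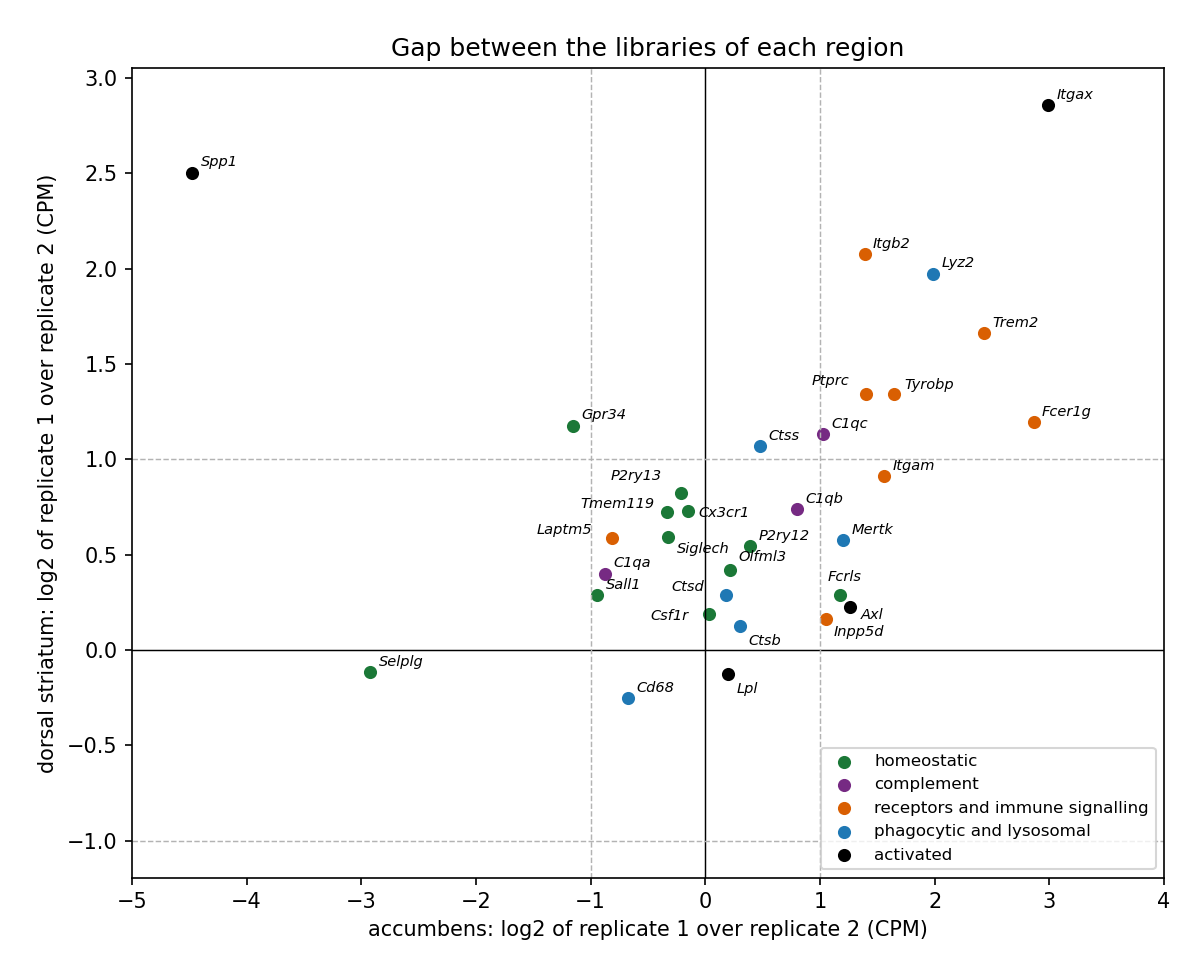
Log2 ratio of replicate 1 to replicate 2 in accumbens (horizontal axis) and in dorsal striatum (vertical axis) for 32 genes, coloured by role, with dashed lines at a 2-fold gap; Aif1 and Cst7 are left out because a library had 0 counts. Points lie mostly above the horizontal line, with Trem2, Tyrobp, Fcer1g, Itgb2, Ptprc, C1qc, Lyz2 and Itgax over 2-fold high in replicate 1 of both regions.

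Markers of other glia and of vessels also differed between the dorsal striatum replicates. Dorsal striatum replicates 1 and 2 had 3390 and 2400 CPM over 12 astrocyte genes and 2890 and 2010 CPM over 12 oligodendrocyte genes. Over 15 vascular genes they had 86.5 and 60.4 CPM. Of the 12, 12 and 13 tested genes of these lists, 10, 12 and 12 were higher in replicate 1, against 50% of all tested genes. Over 10 general neuronal genes the sums were 8410 and 8830 CPM, with 3 genes higher in replicate 1. In accumbens replicates 1 and 2 the sums were 3770 and 3200 CPM for astrocytes, 2670 and 3090 CPM for oligodendrocytes, 151 and 105 CPM for the vascular genes and 10400 and 10500 CPM for neurons. Of these lists the astrocyte gene Gja1 and the vascular gene Slc2a1 passed between regions, both higher in accumbens (0.994% of all tested genes). The other genes of these 2 lists did not all share this sign. Fold changes were positive for 6 and negative for 6 of the astrocyte genes, and for 8 and 5 of the tested vascular genes. The most abundant of the neuronal genes were Snap25 and Map2. The part of these differences in the values of the microglia genes was not tested.

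The calls rested on which accumbens library was kept. Without accumbens replicate 2, 12 of 34 members passed, against 28.9% of 15443 genes in that fit, with Fcer1g (log2 fold change 2.50), Trem2 (2.91) and Itgam (1.51) among the 9 higher in accumbens (15.5% of genes) and Selplg, Aif1 and Spp1 the 3 lower (13.5%). Without accumbens replicate 1, 4 of 33 passed, against 18.2% of 15348 genes, with Laptm5 (1.05) and Sall1 (0.64) higher (10% of genes) and Lyz2 (−1.65) and Mertk (−1.02) lower in accumbens (8.13%). No member was called in both. Such a fit has 1 accumbens library, which is assumed to vary as the dorsal striatum pair does. No member passed without dorsal striatum replicate 1 (0.710% of genes) or replicate 2 (1.09%).

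Genes around these members were read from lists of the same pathways. Of 28 tested further microglia genes none passed, and the median log2 fold change was 0.22. The most abundant were Sparc, a matrix protein gene that other glia and vascular cells also express, at 134 and 113 against 120 and 66.9 CPM, and Lgmn, a lysosomal protease gene, at 26.6 and 18.0 against 17.5 and 14.0 CPM. Of 15 further genes of activated microglia 1 passed, against 1.28% of all tested genes. It was Timp2, an inhibitor of matrix metalloproteases that many cell types express. Timp2 stood at 463 and 389 CPM in accumbens, against 212 and 265 CPM in dorsal striatum (0.84, SE 0.16, edgeR adjusted p = 0.0491). The inflammatory chemokine genes Ccl2 and Ccl3 had 0 counts in all libraries. Of 9 tested genes of Trem2 signalling and its ligands none passed, with a median of 0.28. The most abundant were the lipid carrier genes Apoe (193 and 159 against 154 and 113 CPM) and Clu (167 and 143 against 140 and 115 CPM), which astrocytes also express.

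Among 11 tested genes of ligands and the TGF-beta pathway none passed. Cx3cl1, the fractalkine ligand of Cx3cr1, was at 609 and 401 CPM in accumbens, against 225 and 266 CPM in dorsal striatum (1.04, SE 0.20, edgeR adjusted p = 0.0530). Il34, a ligand of Csf1r made by neurons, was at 24.5 and 16.5 against 9.25 and 13.2 CPM (0.86, SE 0.34, edgeR adjusted p = 0.219). For both of these genes the accumbens libraries lay above the dorsal striatum libraries. Csf1, the other Csf1r ligand gene of the list, overlapped, at 24.5 and 15.6 against 19.4 and 17 CPM (0.14, edgeR adjusted p = 0.851). Il34 and Csf1 were chosen after their values were seen. Smad3, a transcription factor gene of TGF-beta signalling, was at 89.7 and 84.4 against 72.0 and 71.9 CPM (0.28, edgeR adjusted p = 0.369). Of 8 tested complement genes other than C1q none passed (median −0.31). The most abundant were Csmd1, a neuronal complement inhibitor gene, at 127 and 115 against 134 and 130 CPM, and C4b, a complement component gene of astrocytes, at 29.0 and 29.4 against 24.9 and 10.4 CPM. C3, the central complement component, was chosen after its values were seen, with 0 counts in accumbens and 4.10 and 1.83 CPM in dorsal striatum. Its mean was at least 7.94-fold lower in accumbens against the floor of 3 counts per library, or at least 4.91-fold with dorsal striatum replicate 2 alone (edgeR adjusted p = 0.0696).

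Of 18 tested genes of the engulfment machinery 1 passed, against 1.28% of all tested genes. It was the GTPase gene Rac1, at 618 and 643 CPM in accumbens, against 421 and 407 CPM in dorsal striatum (0.61, SE 0.11, edgeR adjusted p = 0.0491). Of 28 general lysosome genes 1 passed, against the same 1.28%. It was the acid alpha-glucosidase gene Gaa, at 388 and 366 against 159 and 220 CPM (0.99, SE 0.17, edgeR adjusted p = 0.0431). The 28 genes had a median of 0.27, and their summed level was 1660 and 1490 CPM in accumbens, against 1110 and 1100 CPM in dorsal striatum. All cell types express genes of this kind. Of the 28 genes, 19 had a positive fold change, as Ctsd and Ctsb did, and 9 a negative one. A link of Ctsd and Ctsb to this list was not tested.

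Most markers of other immune cells fell below the low-count filter, 10 of 12 for border macrophages, 14 of 15 for monocytes and neutrophils and 15 of 16 for lymphocytes. Of 12 genes of border macrophages Pf4, Clec4n and Cd209f had 0 counts in all libraries, and the sums were 15.7 and 21.9 CPM in accumbens, against 21.3 and 17.4 CPM in dorsal striatum, most of it from the scavenger receptor gene Cd163 (14.6 and 16.9 against 16.9 and 14.3 CPM). Stab1, another scavenger receptor gene, had 0.495 and 3.88 against 2.10 and 0.797 CPM. The mannose receptor gene Mrc1 had 5 and 9 counts in accumbens and 7 and 6 in dorsal striatum. Of 15 monocyte and neutrophil genes 7 had 0 counts in all libraries, among them Ccr2, Ly6c2 and S100a9, and the sums were 8.42 and 2.63 against 6.09 and 4.78 CPM. The most abundant were Csf3r, the receptor gene of granulocyte colony-stimulating factor, at 6.81 and 2.0 against 4.20 and 2.07 CPM, and Retnlg. Of 16 lymphocyte genes 12 had 0 counts in all libraries, among them Cd3e and Cd8a. The sums of 63.5 and 36.6 against 81.9 and 82.2 CPM came almost wholly from Cd4. Next was Cd2, with only 0 and 2 counts in accumbens and 1 and 0 in dorsal striatum. Which cells the Cd4 reads came from was not tested.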

How the data were processed

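The authors deposited raw read counts by gene symbol for each library. The submitters' processing notes name STAR 2.0.0e, HTSeq and mm10, and the sources used here do not give the annotation or the strand setting. Rows without a gene name entered neither library sizes nor tests. Of the sum of all rows, reads in no feature were 27.5% to 35.4%, ambiguous reads 6.06% to 9.46% and reads with several alignments 6.98% to 10.2%.

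Counts were scaled with TMM and tested with edgeR 4.0.16 (filterByExpr, estimateDisp, glmQLFit, glmQLFTest) in R 4.3.3, on a design of region alone, with Benjamini-Hochberg adjustment over 14493 genes. Fold changes are accumbens over dorsal striatum. Standard errors are the log2 fold change over the square root of F, and 95% intervals hold the values the same test does not reject at 0.05. Lengths, coordinates and overlaps came from GENCODE M21 on GRCm38, whose chromosomes are those of mm10, and shared sequence from blastn 2.17.0. Alternatives covered scaling, filter, tool (DESeq2 1.42.0, limma 3.58.1), fit, a minimum fold, a replicate block, length and GC offsets, the 50 most abundant genes left out and each library left out. The procedure was run on simulated counts with planted changes, and the pass condition was the sign of those changes. The simulated spread followed the trend over all genes and not the gaps seen for the members. The run therefore does not bear on detection of the members. Members and lists were chosen with earlier results of these data known. All 34 members are named, and other lists give up to 3 genes past the threshold, or the 2 most abundant if there were none. Not every gene so chosen is reported here. Il34, Csf1, C3, Mrc1 and the genes given as having 0 counts were added after their values were seen.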

Additional observations from a re-analysis of the deposited data

How the results depend on the processing

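Across the 13 settings that kept all 4 libraries 0 members passed, and Ctsd came nearest, with adjusted p of 0.0649 without a low-count filter, 0.0732 with DESeq2 and 0.0902 with the replicate block. The number of all genes past the threshold, 186 as reported, was 1203 without that filter, 884 with DESeq2, 431 with limma-voom, 371 with the newer edgeR fit (legacy=FALSE) and 0 with a minimum fold of 1.5, where 889 had an unadjusted p under 0.05. Labels do not say that replicate numbers mark shared animals, and differences between replicates 1 and 2 had a correlation of 0.033 between regions over 14493 genes and 0.24 over the 32 members. A replicate block raised the count of all genes to 843 and called 0 members.

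Leaving out each library gave 109 to 4464 genes and 0 to 12 members past the threshold. The median log2 fold change of the members then ran from 0.021 to 0.634, that of the homeostatic genes from −0.164 to 0.441 and that of the activated genes from −0.34 to 0.402, with the highest member and activated medians without dorsal striatum replicate 1.

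Signs turned for these genes, none of which passed with all libraries, and the cause was not tested. With library size alone the log2 fold change was −0.09 for P2ry12, −0.02 for Gpr34, −0.02 for Selplg, −0.06 for C1qb, −0.1 for Ctss and −0.06 for Cd68. Selplg was at −0.47 with limma-voom, −0.35 with the replicate block and −0.03 with a GC offset, which gave C1qb −0.08. A length offset gave C1qb −0.11, Ctss −0.06 and Cd68 −0.05. Leaving out each library gave ranges of −0.18 to 0.35 for P2ry12, −0.08 to 1.09 for Fcrls, −0.51 to 0.81 for Gpr34, −1.94 to 0.96 for Selplg, −0.3 to 0.64 for Sall1 and −0.33 to 0.51 for C1qb. They were −0.14 to 1.66 for Tyrobp, −0.36 to 2.5 for Fcer1g, −0.05 to 1.51 for Itgam, −1.36 to 0.27 for Ptprc, −0.38 to 0.68 for Ctss and −0.27 to 0.4 for Cd68. They were −1.65 to 0.91 for Lyz2, −1.02 to 0.19 for Mertk, −4.25 to 0.82 for Spp1 and −0.46 to 0.8 for Axl. With 2 libraries a region and many members under 10 CPM, differences under 2-fold were mostly not detectable. Estimates over 2-fold also did not pass, as for Trem2 (4.37-fold, edgeR adjusted p = 0.308) and Aif1 (0.308-fold, edgeR adjusted p = 0.512).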
